A study of Homo sapiens with 16 samples.

Results

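Integrins and laminins form the link between a cell and the basement membrane, and their genes were followed here through induction of human neural crest with and without edits of FOXB1, a forkhead transcription factor gene. The set was chosen by gene symbol alone, as every gene named ITGA or ITGB plus a subunit code, or LAMA, LAMB or LAMC plus a digit. It held 38 of the 23284 genes of the deposited table. Of these, 26 encode integrin subunits (18 alpha and 8 beta) and 12 encode laminin chains. In all, 21 reached 1 FPKM (a level scaled to transcript length and sequencing depth) in at least 1 group, 13 did so in all 6 groups, and 7 stood at 10 FPKM or more in all 6 groups.

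The cells were WA01 human embryonic stem cells, an established line, differentiated on Matrigel with 3 µM of the WNT agonist CHIR99021 and, early on, 10 µM of the ROCK inhibitor Y-27632. These conditions were common to all groups. RNA was taken at day 3 (pre-neural crest) and day 5 (neural crest) from a pair of isogenic wild-type lines (named isoWT1 and isoWT2), and also from a Het and a KO line cut by CRISPR/Cas9 with a single guide at the FOXB1 translation start, with 2 replicates of each line and day (16 libraries). The table has 6 groups, wild type, Het and KO at both days, with 1 FPKM value per gene and group. Which of the 4 wild-type libraries of a day entered its wild-type group is not stated in it. Whether a line is 1 clone is not given in the sources used here, and with 1 edited line per genotype the effect of the genotype and that of the line cannot be told apart. Nothing states that replicates came from separate cultures, so the spread between these libraries may be technical. The p-values come from the authors' Cuffdiff model and cover no variation beyond these libraries. The standard error that the deposited scores imply was 0.194 to 0.272 of the level for members at 10 FPKM or more. With so narrow a range, the p-values do not plainly measure the spread of each gene between libraries. Depth per library is unknown. These are bulk samples, so fewer cells of a type and less RNA per cell cannot be told apart.

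Laminins are large secreted trimers of an alpha, a beta and a gamma chain that assemble the sheet-like basement membrane, and the alpha chain carries the main binding site for cells. Integrins are transmembrane pairs of an alpha and a beta subunit. The alpha subunit largely sets the ligand, so that integrins fall into laminin binders (alpha3, alpha6, alpha7), binders of the RGD motif of fibronectin and vitronectin (alpha5, alpha8, alphaV, alphaIIb), collagen binders (alpha1, alpha2, alpha10, alpha11), the alpha4 and alpha9 pair, and leukocyte integrins. Neural crest cells arise in an epithelium, pass through its basement membrane and then migrate over fibronectin and laminin.

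The RNA of the targeted gene did not follow the labels in a graded way. FOXB1 stood at 18.3, 7.73 and 15.5 FPKM in wild type, Het and KO at day 3, and at 5.51, 4.47 and 1.86 FPKM at day 5. Falls were called for Het at day 3 (-1.25 on the log2 scale, SE 0.58) and for KO at day 5 (-1.56, SE 0.69), and an edit at a translation start need not lower RNA. Summed over 10 neural crest markers, the level was 18.4, 65.5 and 85.8 FPKM in wild type, Het and KO at day 3 and 64.2, 112.9 and 264.9 FPKM at day 5. In the wild-type group labelled neural crest, the defining markers SOX10 and FOXD3 were at 0.388 and 0.198 FPKM, against 34.6 and 18.6 FPKM in KO. Of the 10, 7 were at 1 FPKM or more in wild type at day 5 and all 10 in each edited line. SNAI2 was at 23.2 and 28.5 FPKM in wild type and KO and NGFR at 17.5 and 19.7 FPKM, so that the wild-type and KO levels of these lay closer together. The sum over 4 neural progenitor markers was 36.6 FPKM in wild type and 3.23 FPKM in KO at day 5. Mesoderm and endoderm markers (5 genes) summed to 16.2 FPKM in KO at day 3 and to at most 2.07 FPKM elsewhere. Blood markers (4 genes) stayed between 0.141 and 0.649 FPKM in all 6 groups. The part of these differences between groups in the results that follow was not tested.

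Genes on the long arm of chromosome 1 had a median log2 change of 0.60 in KO against wild type at day 3 (575 genes) and 0.37 at day 5 (572 genes). Genes of chromosome 12 had medians of -0.47 and -0.50 in KO and of -0.52 and -0.27 in Het. LAMC1, LAMB3 and ITGA10 lie in the first region and ITGA5, ITGA7 and ITGB7 on chromosome 12. At day 3 the GC-richest of 5 equal classes of genes had a median of -0.47 in both edited lines, against 0.17 (KO) and 0.21 (Het) in the GC-poorest class. Between the days wild type itself moved by 0.40 in the GC-poorest and -0.53 in the GC-richest class. A call in the authors' deposited table is a q-value below 0.05, and "rose" and "fell" are kept for calls. Where a call was lost once the median of a gene's chromosome or GC class was subtracted, the shifted change is given beside it.

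The clearest changes were in the KO line at day 5. Of 23 members tested there against wild type, 8 were called higher and 2 lower by the authors' deposited table, where 7.58% of all 14936 tested genes rose and 5.68% fell. The 8 were ITGA8, LAMC3, ITGB3, LAMA4, ITGA4, LAMC1, ITGA2 and LAMB2, so 4 of 7 tested laminin genes and 4 of 16 tested integrin genes rose. The 2 that fell, ITGB8 and ITGA7, are both integrin genes. Members tested there had to reach enough fragments in at least 1 of the groups, so these counts do not describe all 38. Of the 8, ITGA2, ITGB3, LAMA4 and LAMC3 were not tested in Het against wild type at day 5. They entered the tests of day 5 only through KO, the group where they are high. The counts of rises among tested members are raised by this and are no support on their own. Over the 37 members above 0 FPKM in either group the median change was 0.29 on the scale log2(FPKM + 0.1), against 0.06 for all genes. Of the 8, 5 also rose against Het at day 5 (ITGA8, ITGB3, LAMA4, LAMC1 and LAMC3). The 2 comparisons share the KO libraries. By a 2-sided normal reading of the deposited scores, 6 of the 10 calls against wild type remained and those of ITGA2, ITGA7, LAMA4 and LAMB2 were lost. By the same reading 3 of the 6 calls against Het remained, and those of ITGA8, ITGB8 and LAMA4 were lost. That reading is laxer than the deposited p-value for ITGA8 and LAMC3 against wild type, and for ITGB3 and LAMC3 against Het. ITGA8 against wild type, for example, has a score of 4.86 and a Cuffdiff p of 0.0039. That these calls remained is thus no added support for them. In hg19 the loci of the 5 genes that rose against both other lines are on chromosomes 10 (ITGA8, 15559087 to 15761770), 17 (ITGB3, 45331207 to 45390077), 6 (LAMA4, 112429133 to 112575828), 1 (LAMC1, 182992594 to 183114727) and 9 (LAMC3, 133884503 to 133968446). ITGA4 lies on chromosome 2 (182321618 to 182521834), LAMB2 on chromosome 3 (49158546 to 49170599), ITGA2 on chromosome 5 (52285155 to 52390609) and ITGB8 on chromosome 7 (20370724 to 20455382). In the plot of levels by group, KO at day 5 lies apart from the other groups for these 5 genes.

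**Figure D1:**
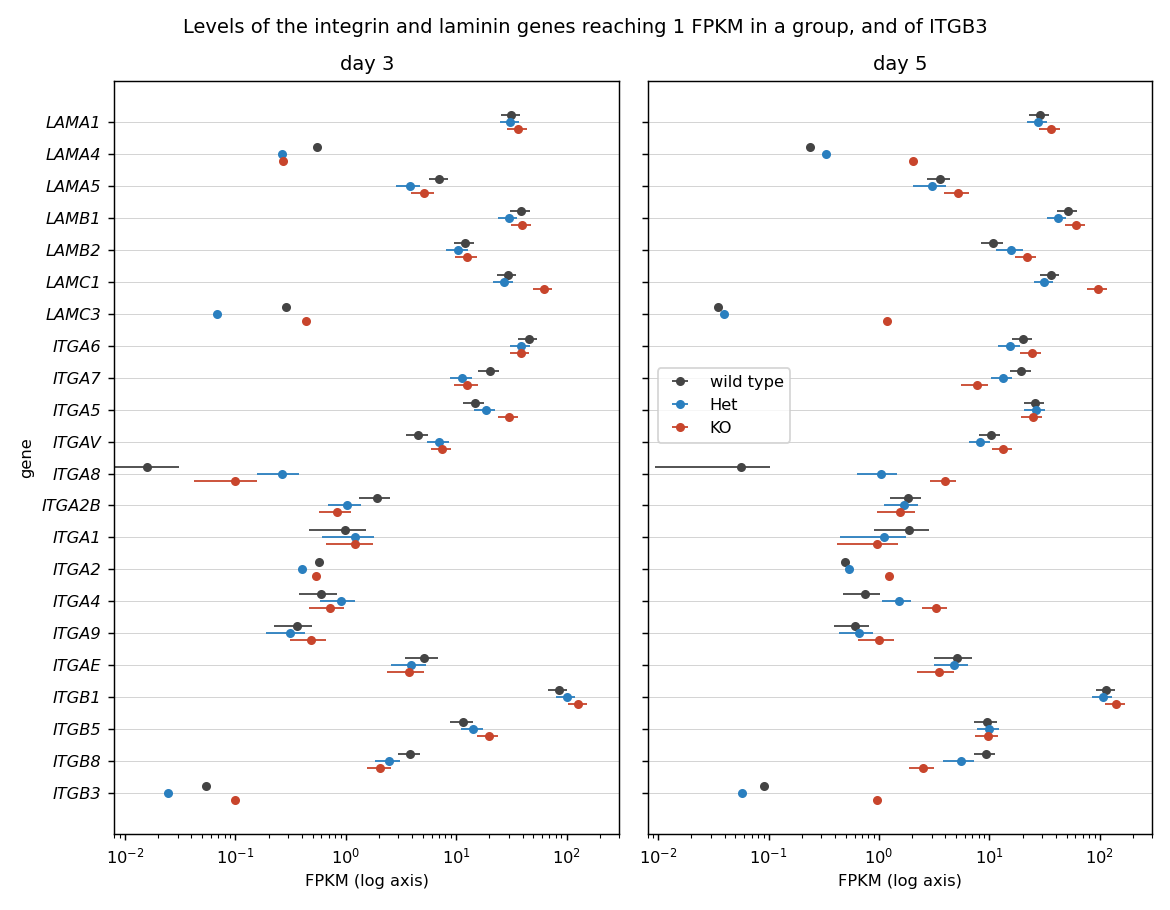
FPKM (log axis) of the 21 members that reached 1 FPKM in a group, and of ITGB3, at day 3 (left) and day 5 (right) in wild type, Het and KO. Points are the deposited group values and bars 1 implied standard error, drawn where the table's tests gave one. At day 5 the KO points of LAMA4, LAMC1, LAMC3, ITGA8 and ITGB3 lie to the right of wild type and Het.

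The RefSeq promoter table (GRCh38.p14) held the starts of 26 of the 38 members, among them 3 of the 5 genes that rose in KO against both other lines at day 5. The 250 bases before the start of each are shown because these genes were called higher in KO than in both other lines at day 5, and TFAP2A and TFAP2B, neural crest factors, were at 29.6 and 24.9 FPKM in KO and at 1.98 and 1.67 FPKM in wild type at day 5. Each runs 5′ to 3′ on the strand of the gene, with matches to the TFAP2 core GCCNNNGGC in capitals. ITGA8 lies at chr10:15719923-15720172 (minus strand), LAMA4 at chr6:112254568-112254817 (minus strand) and LAMC1 at chr1:183023170-183023419 (plus strand).
ITGA8: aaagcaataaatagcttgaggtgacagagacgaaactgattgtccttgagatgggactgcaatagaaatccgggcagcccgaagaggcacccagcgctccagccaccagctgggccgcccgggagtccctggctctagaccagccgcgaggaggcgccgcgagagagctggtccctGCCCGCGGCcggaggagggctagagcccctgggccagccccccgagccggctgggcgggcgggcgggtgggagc
LAMA4: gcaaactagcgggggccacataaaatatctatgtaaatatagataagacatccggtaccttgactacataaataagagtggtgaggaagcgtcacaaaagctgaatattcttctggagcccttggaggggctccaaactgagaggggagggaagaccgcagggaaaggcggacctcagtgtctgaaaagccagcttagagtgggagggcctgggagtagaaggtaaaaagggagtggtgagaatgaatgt
LAMC1: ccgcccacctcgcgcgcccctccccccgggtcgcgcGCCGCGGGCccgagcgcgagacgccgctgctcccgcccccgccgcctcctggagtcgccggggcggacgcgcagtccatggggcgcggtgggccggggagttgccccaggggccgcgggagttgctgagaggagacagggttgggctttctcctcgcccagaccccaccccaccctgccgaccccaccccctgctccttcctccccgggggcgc
The core, which reads the same on both strands, was matched from -74 to -66 in ITGA8 and from -214 to -206 in LAMC1, counted from the start. It occurred in 8 of the 33 windows of members (24.2%) and in 19.8% of all 35116 windows of this length. The forkhead core TGTTTAC (2.98% of all windows, either strand) and the TCF and LEF core CTTTGAT (2.26%, either strand) were in none of the 33 windows. A match is a description of letters and not a measured binding site.

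Among laminin alpha chains, LAMA1 was the main gene in every group. LAMA1, the chain of laminin-111 and of the early embryo, was at 31.7, 30.9 and 36.3 FPKM in wild type, Het and KO at day 3 and at 28.6, 27.6 and 35.8 FPKM at day 5. It made up 79.8% to 87.8% of the summed laminin alpha FPKM, and none of its tested changes passed the test. LAMA5, a chain of mature epithelial membranes, was at 7.05, 3.79 and 5.13 FPKM at day 3 and at 3.58, 3.05 and 5.21 FPKM at day 5. It was thus highest in wild type at day 3. LAMA5 fell in Het against wild type at day 3 (log2 change -0.90, SE 0.44, q-value 0.0257) and in wild type between the days (log2 change -0.98, SE 0.44, q-value 0.00547). LAMA5 is GC-rich (66.4% GC), and relative to genes of like GC content these changes were -0.19 and -0.24 and no longer called. Both calls were also lost with the normal reading of the score. The call in Het was lost as well when p-values were adjusted within that comparison alone. The LAMA5 locus also holds MIR4758.

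LAMA4, a chain of vessel, muscle and nerve membranes, was the alpha chain that rose in KO. It was at 0.553, 0.265 and 0.267 FPKM in wild type, Het and KO at day 3 and at 0.239, 0.331 and 2.02 FPKM at day 5, so that KO at day 5 alone was above 1 FPKM. LAMA4 rose 8.44-fold against wild type at day 5 (log2 change 3.08, SE 1.21, q-value 0.00126) and 6.09-fold against Het (log2 change 2.61, SE 1.00). Both calls were lost with the normal reading of the score. Its share of laminin alpha FPKM in KO at day 5 was 4.66%. LAMA2 and LAMA3 reached at most 0.383 and 0.268 FPKM.

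LAMB1 and LAMB2 were the laminin beta chains present, and LAMB2 rose in KO at day 5. LAMB1, the partner of LAMA1 in laminin-111, was at 38.6, 29.9 and 39.7 FPKM in wild type, Het and KO at day 3 and at 51.8, 41.5 and 61.0 FPKM at day 5. No tested change of LAMB1 was called, and it held 72.5% to 82.7% of beta chain FPKM. LAMB2, the beta chain of synaptic and kidney membranes, was at 12.1, 10.5 and 12.6 FPKM at day 3 and at 10.9, 15.7 and 21.9 FPKM at day 5. LAMB2 rose 2.01-fold in KO against wild type at day 5 (log2 change 1.01, SE 0.45, q-value 0.0122), a call lost with the normal reading of the score. Against Het its change of 0.48 (SE 0.51) was not called. LAMB3 and LAMB4 reached at most 0.122 and 0.0134 FPKM.

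LAMC1, the gamma chain of most laminins, was higher in KO than in both other lines at both days. It was at 29.2, 27.2 and 62.1 FPKM in wild type, Het and KO at day 3 and at 35.9, 31.6 and 95.8 FPKM at day 5. The 2 KO values were the highest and second highest, and wild type and Het lay between 27.2 and 35.9 FPKM. LAMC1 rose 2.13-fold at day 3 and 2.67-fold at day 5 against wild type (log2 changes 1.09, SE 0.41, and 1.42, SE 0.42, both with q-value 0.00126). Against Het it rose 2.28-fold and 3.04-fold. LAMC1 lies on chromosome 1 (182992594 to 183114727 in hg19), on the long arm. Relative to the genes of that region its changes at day 3 were 0.49 against wild type and 0.62 against Het, and neither was then called. At day 5 they were 1.05 and 1.15, both still called with the SE multiplied by 0.648 and 0.709. With the full SE the shifted change against wild type would not pass the same limit. With the normal reading of the score both calls of LAMC1 at day 3 were lost as well.

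Set beside the beta chain of the main trimer, LAMC1 FPKM over LAMB1 FPKM was 0.757, 0.911 and 1.57 in wild type, Het and KO at day 3 and 0.693, 0.760 and 1.57 at day 5. This ratio takes no account of the shift of the chromosome 1 region, and its difference between lines was not tested. LAMC3, a gamma chain first described in nerve and reproductive tissue, was at 0.287, 0.0687 and 0.440 FPKM at day 3 and at 0.0351, 0.0391 and 1.18 FPKM at day 5. It rose 33.8-fold in KO against wild type at day 5 (log2 change 5.08, SE 1.04, q-value 0.0269) and 30.3-fold against Het (log2 change 4.92, SE 0.95, q-value 0.0157). Both calls of LAMC3 were lost at a q-value below 0.01 and with 1 FPKM required in both groups. With wild type and Het under 0.1 FPKM at day 5, these folds rest on very few fragments. LAMC1 nevertheless held 97.7% to 99.3% of gamma chain FPKM.

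**Figure D2:**
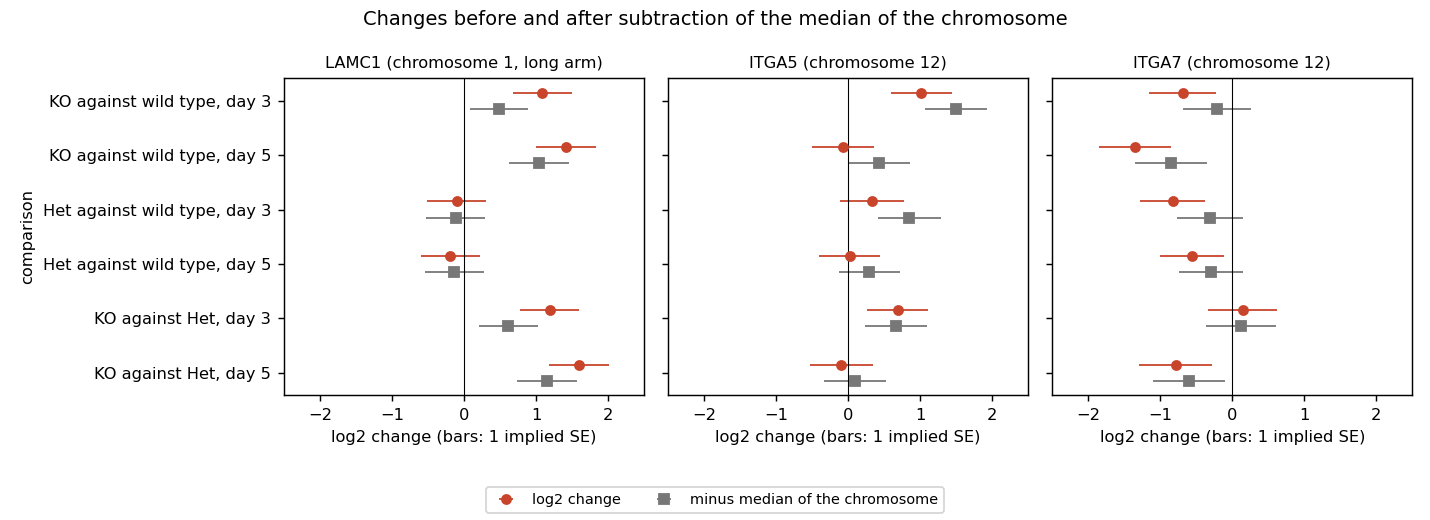
Log2 changes (points, bars 1 implied standard error) of LAMC1, ITGA5 and ITGA7 in the 6 comparisons between lines, as deposited (circles) and after the median of the expressed genes of the same chromosome or chromosome 1 region was subtracted (squares). LAMC1 in KO against wild type moves from 1.09 to 0.49 at day 3 and from 1.42 to 1.05 at day 5, and in the comparisons with wild type ITGA7 moves toward 0 while ITGA5 moves to larger values.

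Of the laminin-binding integrin alpha genes, ITGA6 fell with time and ITGA7 was lower in the edited lines. ITGA6, the partner of beta1 in a main laminin receptor of stem cells, was at 45.2, 38.7 and 38.3 FPKM in wild type, Het and KO at day 3 and at 20.3, 15.4 and 24.3 FPKM at day 5. All 3 values of day 5 were below all 3 of day 3. ITGA6 fell from day 3 to day 5 in wild type (log2 change -1.16, SE 0.41) and in Het (-1.33, SE 0.43), both with q-value 0.00126. In KO its change of -0.66 (SE 0.43, q-value 0.158) was not called. The calls in wild type and in Het were lost with the normal reading of the score.

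ITGA7, the muscle laminin receptor subunit, was at 20.2, 11.4 and 12.6 FPKM at day 3 and at 19.5, 13.2 and 7.66 FPKM at day 5. Wild type was above both edited lines at each day. ITGA7 fell at day 3 in Het (log2 change -0.83, SE 0.45, q-value 0.0346) and in KO at day 5 (-1.35, SE 0.50, q-value 0.00316), while KO at day 3 (-0.69, SE 0.47) and Het at day 5 (-0.56, SE 0.44) were not called. ITGA7 lies on chromosome 12 (56075329 to 56106089 in hg19). Relative to that chromosome its change was -0.31 in Het at day 3 and -0.85 in KO at day 5, and neither was then called. Both calls were also lost with the normal reading of the score. The call in Het at day 3 was lost as well when p-values were adjusted within that comparison alone. ITGA7 is also GC-rich (60.2% GC), and its change relative to genes of like GC content is not given here. Its locus overlaps METTL7B, and whether counting used the strand is not stated. ITGA3, the remaining laminin binder, reached 0.814 FPKM (KO, day 5).

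Among RGD binders, ITGA8 showed the widest range of all members with a level above 0 in every group. ITGA8, the receptor subunit for nephronectin, was at 0.0159, 0.267 and 0.0989 FPKM in wild type, Het and KO at day 3 and at 0.0561, 1.05 and 3.95 FPKM at day 5. At day 5 the order was wild type, Het, KO, and each step was called. ITGA8 rose in Het against wild type (log2 change 4.23, SE 1.33, q-value 0.0393), in KO against wild type (6.14, SE 1.26, q-value 0.0379) and in KO against Het (1.91, SE 0.69, q-value 0.0142). The calls of Het against wild type and of KO against Het were lost with the normal reading of the score. That of Het against wild type was also lost when p-values were adjusted within that comparison alone. All 3 calls were lost at a q-value below 0.01, and both calls against wild type with 1 FPKM required in both groups. With wild type under 0.1 FPKM, the folds of 18.7 and 70.4 against it rest on very few fragments.

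ITGA5, the fibronectin receptor subunit, was called between lines at day 3 and not at day 5. It was at 14.8, 18.6 and 29.9 FPKM in wild type, Het and KO at day 3 and at 25.9, 26.3 and 24.6 FPKM at day 5. ITGA5 rose 2.03-fold in KO against wild type at day 3 (log2 change 1.02, SE 0.43, q-value 0.00476), and at day 5 the change was -0.07 (SE 0.43). The call at day 3 was lost with the normal reading of the score. ITGA5 lies on chromosome 12, and relative to that chromosome the change at day 3 was 1.49. The change at day 5 turned to 0.43 on the same scale and was not called either way. The change of 0.33 (SE 0.44) in Het at day 3 became 0.85 and was then called with its SE multiplied by 0.621. The full SE does not give that call.

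ITGAV, which pairs with several beta subunits, was at 4.53, 6.998 and 7.48 FPKM in wild type, Het and KO at day 3 and at 10.3, 8.27 and 13.2 FPKM at day 5. It rose between the days in wild type (log2 change 1.18, SE 0.46, q-value 0.00126), a call lost with the normal reading of the score. No comparison between lines was called. ITGA2B, the platelet subunit, was at 1.91, 1.04 and 0.840 FPKM at day 3 and at 1.83, 1.67 and 1.54 FPKM at day 5. Its change in KO at day 3 (-1.19, SE 0.64, q-value 0.0563) was not called.

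The collagen binders were low. ITGA1 was at 0.994, 1.21 and 1.22 FPKM in wild type, Het and KO at day 3 and at 1.87, 1.11 and 0.951 FPKM at day 5, with SEs of its tested changes near 1 log2 unit and no call. Its locus on chromosome 5 overlaps PELO. ITGA2, which lies beside it, was at 0.568, 0.403 and 0.534 FPKM at day 3 and at 0.491, 0.535 and 1.24 FPKM at day 5. ITGA2 rose in KO against wild type at day 5 (log2 change 1.33, SE 0.64, q-value 0.0132), a call lost with the normal reading of the score, and against Het its change of 1.21 (SE 0.63, q-value 0.0548) was not called. ITGA10 and ITGA11 reached at most 0.104 and 0.237 FPKM.

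Of the alpha4 and alpha9 pair, ITGA4 rose in KO. ITGA4, which binds fibronectin and VCAM1 and marks migrating crest in several species, was at 0.601, 0.904 and 0.717 FPKM in wild type, Het and KO at day 3 and at 0.749, 1.52 and 3.31 FPKM at day 5. ITGA4 rose 4.42-fold in KO against wild type at day 5 (log2 change 2.14, SE 0.65, q-value 0.00126). Het lay between them, with changes of 1.02 (SE 0.69) to wild type and 1.13 (SE 0.57) from Het to KO that were not called. The locus overlaps CERKL. ITGA9 was at 0.360, 0.310 and 0.485 FPKM at day 3 and at 0.604, 0.653 and 1.00 FPKM at day 5, with no call.

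Leukocyte integrin genes were at or near 0, apart from ITGAE. ITGAE, known from intraepithelial lymphocytes, was at 5.12, 3.93 and 3.74 FPKM in wild type, Het and KO at day 3 and at 5.06, 4.76 and 3.48 FPKM at day 5, with no call. Its locus overlaps GSG2 on chromosome 17. The blood markers PTPRC, GATA1 and SPI1 were listed at 0 in wild type and Het at day 3. CD34, the remaining blood marker, was at 0.191 and 0.291 FPKM in these groups. In KO at day 3 no blood marker was at 0. The cell source of the ITGAE RNA was not tested. ITGAL, ITGAX, ITGAM and ITGAD reached at most 0.446, 0.371, 0.0492 and 0.0114 FPKM.

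ITGB1, the common partner of most of these alpha subunits, was the most abundant member in every group. It was at 84.7, 100.3 and 128.2 FPKM in wild type, Het and KO at day 3 and at 114.8, 106.6 and 139.9 FPKM at day 5. KO was highest at each day, but its changes against wild type (0.60, SE 0.40, at day 3 and 0.29, SE 0.41, at day 5) were not called. ITGB1 held 84.3% to 91.2% of the summed integrin beta FPKM.

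ITGB8, an alphaV partner that activates TGF-beta, had the largest fall among the members called in KO against wild type at day 5. It was at 3.83, 2.47 and 2.06 FPKM in wild type, Het and KO at day 3 and at 9.28, 5.55 and 2.49 FPKM at day 5, in the order wild type, Het, KO at both days. ITGB8 fell 3.73-fold in KO against wild type at day 5 (log2 change -1.90, SE 0.48, q-value 0.00126) and 2.23-fold against Het (-1.16, SE 0.58, q-value 0.0228), the latter a call lost with the normal reading of the score. At day 3 it fell in KO by 0.90 on the log2 scale (SE 0.47, q-value 0.0463). That call was lost with adjustment within that comparison and with the normal reading of the score. In Het the changes of -0.63 (SE 0.49) and -0.74 (SE 0.55) were not called. The summed neural progenitor markers had the same lowest group, KO, at both days (5.44 and 3.23 FPKM). In wild type their sum went from 44.5 FPKM at day 3 to 36.6 FPKM at day 5, while ITGB8 rose. The part of these markers in the fall of ITGB8 was not tested.

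ITGB5, another alphaV partner, was at 11.5, 14.2 and 19.7 FPKM in wild type, Het and KO at day 3 and at 9.50, 10.0 and 9.75 FPKM at day 5. At day 5 the 3 lines lay between 9.50 and 10.0 FPKM, and at day 3 the KO change of 0.78 (SE 0.46, q-value 0.0563) was not called. ITGB3, the vitronectin receptor partner of alphaV, was at 0.0544, 0.0247 and 0.1003 FPKM at day 3 and at 0.0908, 0.0569 and 0.961 FPKM at day 5. ITGB3 rose 10.6-fold in KO against wild type (log2 change 3.40, SE 0.88, q-value 0.00227) and 16.9-fold against Het (4.08, SE 0.96), from levels below 0.1 FPKM. ITGB7, ITGB4, ITGB2 and ITGB6 reached at most 0.188, 0.168, 0.0501 and 0.0128 FPKM. ITGAD, ITGB2, ITGB6 and LAMB4 were each listed at 0 in at least 1 group.

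The make-up of the integrin alpha pool moved more than that of any laminin chain. ITGA6 held 47.3%, 45.4% and 39.4% of the summed alpha FPKM in wild type, Het and KO at day 3 and 23.0%, 20.3% and 28.0% at day 5. ITGA5 held 15.4%, 21.8% and 30.7% at day 3 and 29.4%, 34.7% and 28.3% at day 5. ITGA7 held 21.2% in wild type at day 3 and 8.81% in KO at day 5. The sum itself ranged from 75.8 to 97.4 FPKM, while the summed gamma chains ranged from 27.7 FPKM in Het at day 3 to 97.5 FPKM in KO at day 5. These shares are of RNA per length, not of protein, and carry no test.

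**Figure D3:**
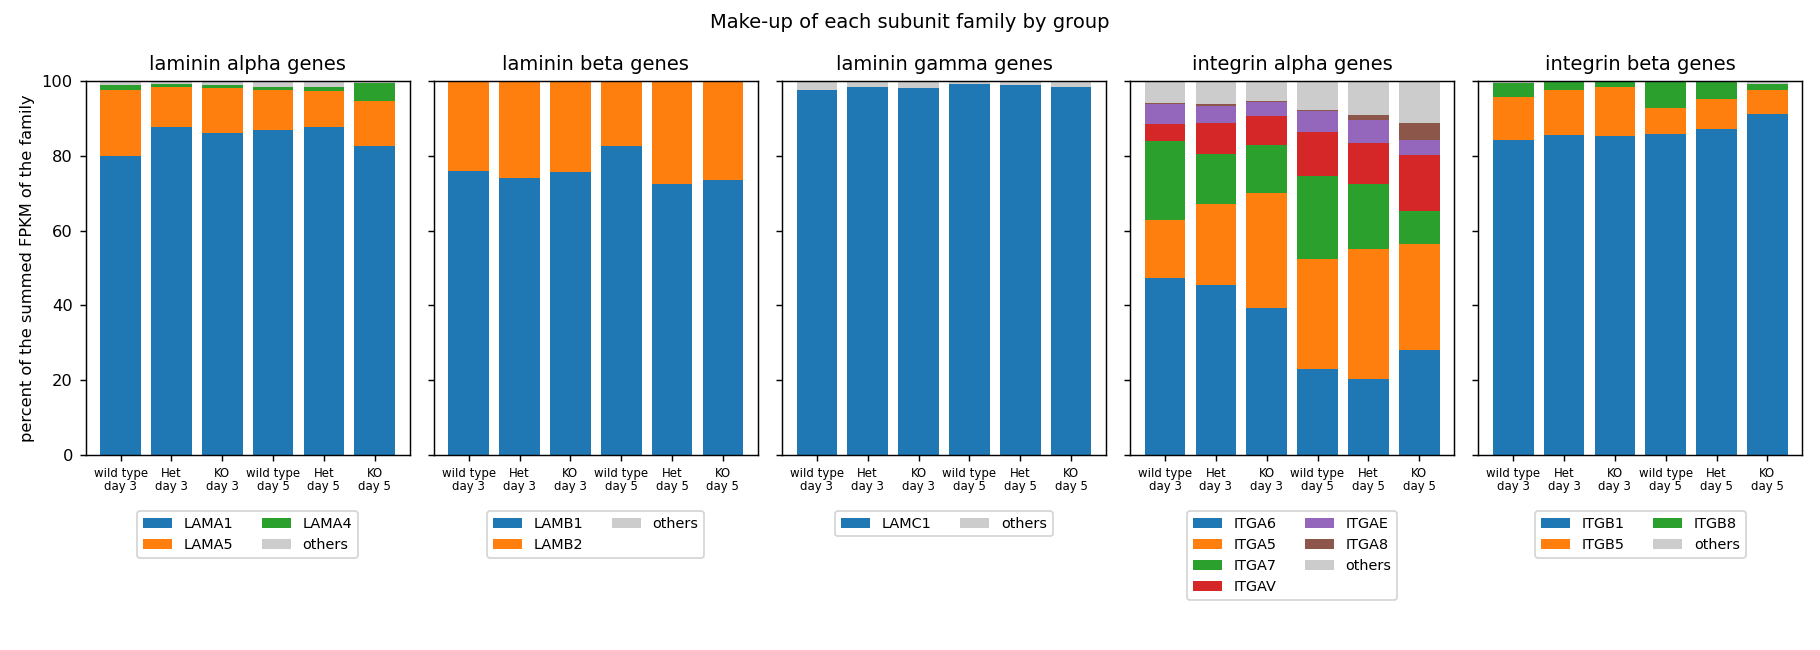
Share of each gene (percent of the summed FPKM of its family, bars from 0 to 100) in the 6 groups, for laminin alpha, beta and gamma and integrin alpha and beta genes. LAMA1, LAMB1, LAMC1 and ITGB1 are the largest in their families in all 6 groups, and ITGA6 shrinks from 47.3% in wild type at day 3 to 23.0% at day 5.

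Against wild type at day 3, 3 members were called in KO and 2 in Het. In KO, 17 members were tested, 2 rose (ITGA5 and LAMC1) and 1 fell (ITGB8), against 4.34% of all tested genes that rose and 5.17% that fell. In Het, 16 were tested, 0 rose (1 at an unadjusted Cuffdiff p below 0.05) and 2 fell (ITGA7 and LAMA5), against 1.68% and 4.63% of all genes. By a 2-sided normal reading of the deposited scores 0 members were called in either comparison. The medians over members were 0.10 in KO and -0.13 in Het, beside -0.02 and -0.03 for all genes.

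In Het at day 5, 1 of 19 tested members rose (ITGA8) and 0 fell (1 at an unadjusted Cuffdiff p below 0.05), where 1.14% of all tested genes rose and 1.02% fell. The median over members was -0.06, beside -0.01 for all genes. KO against Het gave 1 rise (LAMC1) and 0 falls (0 also at an unadjusted Cuffdiff p below 0.05) of 17 tested at day 3, where 2.3% of all genes rose and 0.54% fell. At day 5 it gave 5 rises and 1 fall (ITGB8) of 23 tested, where 5.55% rose and 2.51% fell. Of the 5, ITGB3, LAMA4 and LAMC3 were not tested in Het against wild type at day 5 and entered through KO. The medians over members for KO against Het were 0.14 and 0.36, beside 0.01 and 0.05 for all genes.

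**Figure D4:**
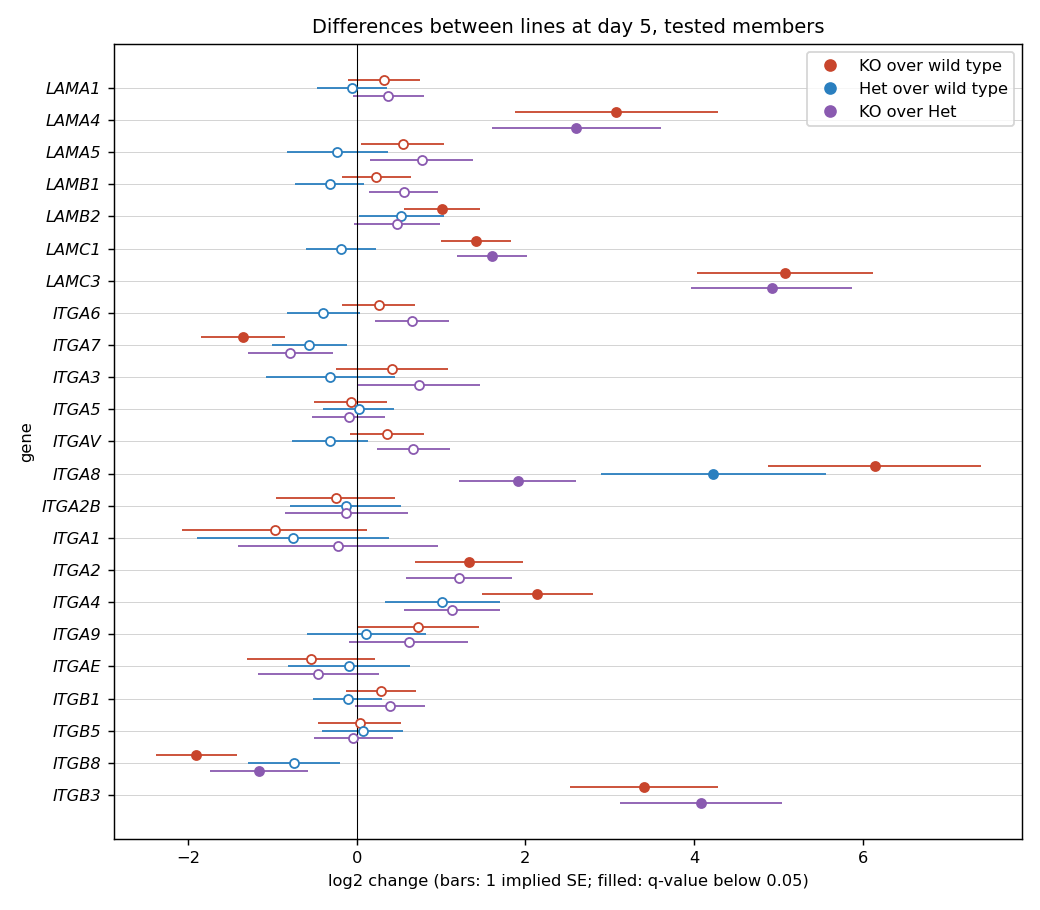
Log2 changes at day 5 of the tested members for KO over wild type, Het over wild type and KO over Het (points, bars 1 implied standard error, filled where the q-value was below 0.05). ITGA8 is filled in all 3 comparisons, LAMA4, LAMC1, LAMC3, ITGB3 and ITGB8 in both that involve KO, and ITGA2, ITGA4, ITGA7 and LAMB2 in KO over wild type alone.

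From day 3 to day 5, different members were called in wild type and KO. In wild type 3 of 18 tested members rose and 2 fell, where 11.2% of all tested genes rose and 10.4% fell. ITGB8 (log2 change 1.28, SE 0.45), ITGAV (1.18, SE 0.46) and ITGA5 (0.81, SE 0.43) rose, and ITGA6 and LAMA5 fell. In Het 2 of 18 rose, ITGA8 (1.98, SE 0.82) and ITGB8 (1.16, SE 0.58), and ITGA6 fell, where 4.74% of all genes rose and 2.83% fell. In KO 4 of 24 rose and 1 fell, where 7.29% rose and 4.53% fell. ITGA8 (5.32, SE 0.92), ITGB3 (3.26, SE 0.85), LAMA4 (2.92, SE 1.54) and ITGA4 (2.21, SE 0.62) rose in KO, the call of LAMA4 being lost with a rescaled score, and ITGB5 fell (-1.01, SE 0.46). With the normal reading of the scores no call remained in wild type or Het, and in KO those of LAMA4 and ITGB5 were lost. The medians over members were -0.06, 0.21 and 0.17 for wild type, Het and KO, beside -0.03, 0.02 and 0.07 for all genes.

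A call in 1 line and not in another does not show that the lines differ, so the differences of the day changes were tested over all genes. With the SE that the deposited scores imply, 0 of 18 members differed between KO and wild type (0.318% of 14143 genes did), 0 of 17 between Het and wild type (0.112%) and 0 of 18 between KO and Het (0.12%). At an unadjusted p below 0.05 the counts of members were 0, 0 and 1. The widest of the KO to wild type differences were 1.89 for ITGA4 (SE 0.98), -1.27 for ITGA1 (SE 1.49), -1.09 for ITGA5 (SE 0.61) and -1.003 for ITGB8 (SE 0.68). In the median over genes of intermediate p-value, the deposited p-values are smaller than a normal reading of the scores gives. For some low genes they are larger, as for ITGA8 in the day change of KO (score 5.78, Cuffdiff p 0.00025). Each SE was then scaled by 1 factor per comparison taken from that median, 0.713 for the day change in KO. With the scaled SE, 5.19%, 1.16% and 1.39% of all genes were called in the 3 tests, and 1, 0 and 1 members. These were ITGA4 for KO against wild type and ITGA8 for KO against Het. For ITGA8 the factor shrinks an SE that its own deposited p-value in KO would widen. ITGA8, ITGB3 and LAMA4 were not tested between the days in wild type, so no such difference to wild type could be formed for them.

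**Figure D5:**
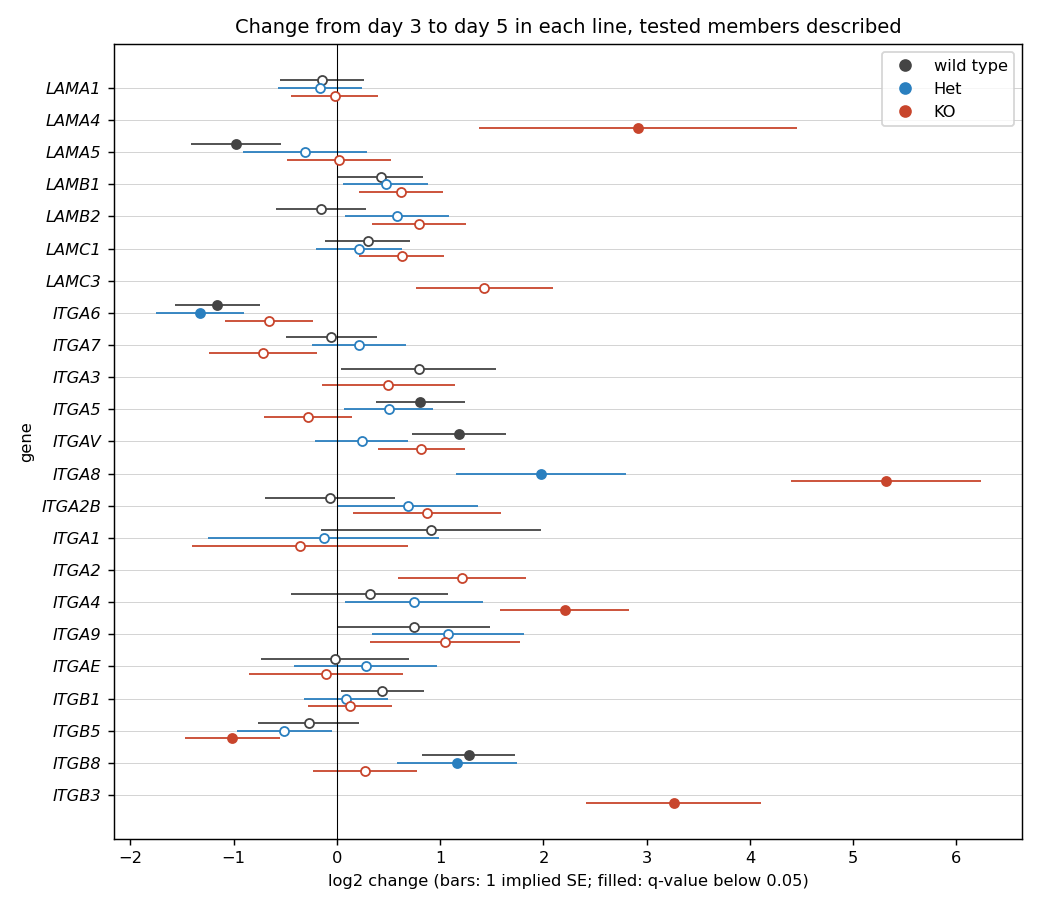
Log2 change from day 3 to day 5 of tested members described in the text, in wild type, Het and KO (points, bars 1 implied standard error, filled where the q-value was below 0.05). ITGA6 is filled to the left of 0 in wild type and Het, ITGB8 to the right in the same lines, and ITGA8, ITGB3, LAMA4 and ITGA4 to the right in KO.

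The partners of laminins in the basement membrane held rises and falls in KO. Of 12 such genes, all tested, 3 rose and 2 fell in KO against wild type at day 5 (7.58% and 5.68% of all tested genes), with a median change of 0.42. FREM2, of the FRAS and FREM complex, rose from 2.90 to 17.5 FPKM (log2 change 2.59, SE 0.48), and HSPG2, which encodes perlecan, from 3.96 to 10.4 FPKM (1.40, SE 0.47). NTN4, a netrin that binds laminin gamma chains, fell from 5.29 to 0.387 FPKM (-3.77, SE 0.69). NID2, a nidogen that bridges laminin and collagen IV, fell from 23.9 to 4.57 FPKM (-2.39, SE 0.47). At day 3 FREM2 rose (1.42, SE 0.44) and NID2 fell (-1.83, SE 0.48) in KO, and NID2 alone fell (-1.49, SE 0.48) in Het. In Het at day 5, 0 of 12 were called, and in KO against Het at day 3, 0 of 11 (2 in each at an unadjusted Cuffdiff p below 0.05). In KO against Het at day 5 FREM2 rose (2.76, SE 0.47) and NTN4 (-2.81, SE 0.76) and NID2 (-1.99, SE 0.49) fell. Between the days 4 rose and 4 fell in wild type, led by NTN4 (2.80, SE 0.64) and FREM1 (-1.50, SE 0.48). In Het 3 rose, led by NTN4 (2.95, SE 0.74), and 0 fell, and in KO 4 rose, led by SPARC (1.62, SE 0.41), and 2 fell, led by FRAS1 (-1.40, SE 0.43). The shares of all tested genes that rose and fell, beside which the counts of this and the next lists stand, were 4.34% and 5.17% in KO and 1.68% and 4.63% in Het against wild type at day 3, and 1.14% and 1.02% in Het at day 5. For KO against Het they were 2.3% and 0.54% at day 3 and 5.55% and 2.51% at day 5. For the day change they were 11.2% and 10.4% in wild type, 4.74% and 2.83% in Het and 7.29% and 4.53% in KO. No list was tested against these shares. The normal reading of the scores is given for integrin and laminin genes only, so the calls of these lists are not firmer than theirs.

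Of 16 genes for other integrin ligands, 5 of 11 tested rose and 0 fell in KO against wild type at day 3 (4.34% and 5.17% of all tested genes), and 6 of 12 tested rose and 2 fell at day 5 (7.58% and 5.68%). At day 3 TNC (tenascin C) rose from 2.46 to 8.80 FPKM (log2 change 1.84, SE 0.48) and ICAM1 from 0.675 to 1.69 FPKM (1.32, SE 0.69). At day 5 TGFBI rose from 2.98 to 46.6 FPKM (3.97, SE 0.54) and SPP1 (osteopontin, an RGD ligand) from 1.12 to 12.1 FPKM (3.43, SE 0.69), while VCAM1 (-2.36, SE 0.85), a ligand of alpha4 integrin, and THBS1 (-1.65, SE 0.54) fell. FN1, fibronectin, rose from 24.6 to 46.5 FPKM. In Het 3 of 11 rose at day 3, led by TNC (2.06, SE 0.48), and at day 5 ICAM1 (1.58, SE 0.79) and TNC (1.10, SE 0.53) rose and THBS1 fell (-1.77, SE 0.53). Against Het, EDIL3 (1.40, SE 0.69) and THBS2 (1.17, SE 0.45) rose in KO at day 3, and at day 5 3 rose, led by SPP1 (4.30, SE 0.83), and VCAM1 fell (-2.31, SE 0.83). Between the days 4 rose and 2 fell in wild type, led by VCAM1 (1.62, SE 0.80) and THBS2 (-2.46, SE 0.54). In Het FN1 rose (0.85, SE 0.43) and 3 fell, led by THBS2 (-2.05, SE 0.55), and in KO 3 rose, led by SPP1 (3.45, SE 0.69), and THBS1 fell (-1.79, SE 0.50).

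Of 22 genes for the adaptors and signalling proteins inside the cell, 5 of 20 tested rose and 0 fell in KO against wild type at day 5, where 7.58% and 5.68% of all genes did. FERMT1, a kindlin that activates integrins, rose from 0.545 to 3.59 FPKM (log2 change 2.72, SE 0.65) and PARVB, a parvin that binds integrin-linked kinase, from 3.61 to 20.1 FPKM (2.48, SE 0.56). At day 3 FERMT1 (0.95, SE 0.53), FERMT2 (0.78, SE 0.39) and VCL (0.77, SE 0.41) rose in KO and TNS3 fell (-0.77, SE 0.42). In that comparison the normal reading of the score left 0 integrin and laminin genes called, and it is not given for these genes. In Het CD9 (-1.47, SE 0.60) and TNS3 (-0.94, SE 0.42) fell at day 3, and 0 of 19 tested were called at day 5 (0 also at an unadjusted Cuffdiff p below 0.05). CD9 lies on chromosome 12, and relative to it the change in Het was -0.96. Against Het, CD9 (2.22, SE 0.58) and FERMT1 (1.52, SE 0.55) rose in KO at day 3, and 4 rose at day 5, led by FERMT1 (3.10, SE 0.68). Between the days wild type had 1 rise, PARVA (0.81, SE 0.48), and 5 falls, led by TNS3 (-2.46, SE 0.44). Het had 0 rises and 3 falls, led by FERMT1 (-1.85, SE 0.68). KO had 3 rises, led by PARVB (2.55, SE 0.59), and 3 falls, led by TNS3 (-1.13, SE 0.45). Medians of these 3 lists in KO against wild type at day 5 were 0.42, 0.71 and 0.29, beside 0.06 for all genes.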

How the data were processed

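Poly-adenylated RNA of 16 libraries was sequenced (4 genotypes, 2 days, 2 replicates). The submitters' processing notes name TopHat2 2.1.1, Cuffdiff 2.2.1 and hg19. The sources used here give neither the annotation nor the strand setting. Per the file headers, the authors' deposited table gives 1 FPKM per gene and group, the log2 fold change, a test score, a p-value and a q-value. It covers 23284 genes in 15 comparisons of 6 groups. The score was read as the log change divided by its standard error, which the headers do not state. Every implied SE rests on that reading. The deposited q-value was checked to be a Benjamini-Hochberg adjustment over all 222234 tests, and the smallest deposited p-value is 5e-05. Values, counts and depths of single libraries were not used here. The group named HOMO was read as the KO line.

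From these, 9 comparisons were used and a gene was called at a q-value below 0.05. Log2 changes carry no pseudocount, and 0.1 FPKM was added for medians. The SE is the log2 change over the deposited score. Over member levels of at least 1 FPKM the implied relative SE was 0.192 to 0.596. Differences of day changes were tested as difference over implied SE, with a 2-sided normal p adjusted over all genes, a test that was run on simulated data first. Alternatives adjusted p-values within a comparison, used a q-value below 0.01, read the score as normal, kept members with 1 FPKM in both groups, or subtracted the median of all expressed genes, of the chromosome (chromosome 1 by arm, split near the centromere) or of 1 of 20 GC bins. Alternatives that subtract a median multiplied the SE by the factor of the comparison (0.547 to 0.713). They called at a 2-sided normal p of at most 0.0057, without new adjustment. GC content came from GENCODE transcripts and was at hand for all 38 members. Promoters came from RefSeq, GRCh38.p14, and no coordinates were converted between builds. A member is not reported here. Named were the other members, with 6 values where 1 FPKM was reached in a group and their highest value otherwise, FOXB1, and the called members of 3 companion lists with the widest rise and fall. FN1, SOX10, FOXD3, SNAI2, NGFR, TFAP2A and TFAP2B were named after their values were seen. The members and lists were chosen with earlier results of these data known. Python 3.11.15 with numpy 2.4.6, pandas 2.3.3, scipy 1.17.1 and matplotlib 3.10.9 was used.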

Additional observations from a re-analysis of the deposited data

Results flagged for a closer look

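The day changes of 2 members differed between lines when each SE was multiplied by 1 factor per comparison, and did not with the full implied SE. The factor brings the scores to the scale of the authors' p-values in the median over genes, not for each gene. For ITGA4, the day change in KO exceeded that in wild type by 1.89 on the log2 scale (2.21 against 0.32, adjusted p 0.0400 with the scaled SE and 1.00 with the implied SE). For ITGA8, the day change in KO exceeded that in Het by 3.34 on the log2 scale (5.32 against 1.98, adjusted p 0.0150 with the scaled SE and 0.735 with the implied SE). At day 3 Het stood above KO for ITGA8 (0.267 and 0.0989 FPKM), both below 1 FPKM. The day change of ITGA8 in KO had a score of 5.78 and a Cuffdiff p of 0.00025, larger than a normal reading gives. The factor thus shrinks its SE where that p-value would widen it, so the scaled result for ITGA8 carries little weight.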

How the results depend on the processing

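No paired analysis was possible because the table holds 1 value per group and none per library, and leaving out a replicate was not possible for the same reason. No called change turned its direction under these settings. Some uncalled changes did, such as ITGA5 in KO against wild type at day 5 (-0.07, and 0.43 relative to its chromosome). The 2-sided normal reading of the deposited scores, adjusted within the comparison, lowered the counts of called members most. It left 0 in KO and 0 in Het against wild type at day 3, 6 in KO and 0 in Het at day 5, 0 and 3 in KO against Het at day 3 and day 5, and 0, 0 and 3 for the day change in wild type, Het and KO. A q-value below 0.01 left 6 in KO and 0 in Het against wild type at day 5, 0 in Het at day 3, 3 in KO against Het at day 5 and 1 for the day change in Het. At least 1 FPKM in both groups left 4 in KO and 0 in Het against wild type at day 5, 3 in KO against Het at day 5 and 1 for the day change in KO. Adjustment within the comparison left 0 in Het at both days. GC bins gave a count of 1 in Het at day 3, and chromosomes left 0 in KO against Het at day 3. These counts take in any member called under the setting, so the 1 in Het need not be ITGA7. The scaled SE raised the differing day changes from 0 to 1 for KO against wild type and from 0 to 1 for KO against Het. Of 36 calls in all, 34 were kept after centring on all genes, 32 within GC bins, 31 within chromosomes and 35 with a rescaled score and no shift, an alternative chosen after seeing the data. The split of rises to falls among members moved with GC bins from 3 to 2 to 4 to 1 for the day change in wild type, and with centring from 2 to 1 to 2 to 2 in KO at day 3. After centring ITGA2B was called in KO at day 3 (-1.18) and ITGB8 was not in the day change of Het (1.12), and within GC bins ITGB5 was called in KO at day 3 (0.90). LAMC3 was called in the day change of KO under all 4 alternatives that rescale the score (1.36 to 1.43). The 9 medians over members kept their sign, lying between -0.04 and 0.12 with 1 FPKM added and between -0.20 and 0.62 over members with 1 FPKM in either group. Low levels limit ITGA8, ITGB3, LAMA4 and LAMC3, which were below 1 FPKM in wild type throughout.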
